A study of Mus musculus with 44 samples.

Results

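The step from 0.5 h to 1 h after mouse blood progenitors were switched to B cell differentiation was examined in 6 of the 44 libraries of a time course, 3 at 0.5 h and 3 at 1 h. The libraries were chosen by their labelled time point alone. Both groups came from iLS cells, induced leukocyte stem cells made from C57BL/6J fetal liver and held as progenitors by Id3-ERT2, a fusion of the inhibitor Id3 to a receptor domain that works only when 4-hydroxytamoxifen (4-OHT) is present. Growth medium, per the labels, held 4-OHT at 40 nM, the cytokines Flt-3L and SCF at an equal 10 ng/mL, and IL-7, which was set to 20 ng/mL, over a layer of TSt-4 stromal feeder cells. Both groups had then been moved to differentiation conditions, in which 4-OHT was absent and IL-7 was lowered to 5 ng/mL over the same feeder line. Whether SCF and Flt-3L were kept after the change is not recorded here. By their labels they differed only in the time since that change, 0.5 h or 1 h. The question was which transcripts move between the earliest pair of time points after the change. The labels do not say that the 3 libraries of a time point came from separate cultures, so the spread behind each p-value may be technical. They also do not say that feeder cells were removed before RNA was isolated. Reads of Id3 itself cannot be divided between the fusion and the cellular gene, whether of progenitors or of feeder cells.

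When cells receive a change of medium, serum or growth factor, kinases activate transcription factors that are already present, and these switch on the immediate-early genes without new protein synthesis. Many of these genes encode AP-1 and Egr factors, and their short-lived mRNAs are cleared soon after. A later wave of delayed-early genes follows, which includes phosphatases, ubiquitin editors and transcriptional repressors that restrain the kinases and factors of the opening wave.

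Values are FPKM, fragments scaled to transcript length and library size, from the authors' table. The summed FPKM of the 6 libraries ran from 558238 to 651909, and 12100 to 12313 genes reached 1 FPKM in each. The table gives no counts, so the depth is unknown, and the step size of the lowest values put the relative depth of the libraries between 1 and 3.03, with 0.5 h replicate 3 the deepest. Pearson correlations across genes, which are not independent of each other, were 0.910 to 0.937 between libraries of the same time point and 0.918 to 0.942 between libraries of different ones. Between 8.23% and 23.3% of a library's summed FPKM fell on small RNA genes. Of 4007 genes with a median of at least 20 FPKM, 16 were listed at 0 in some of the 6 libraries. Of the markers of the labelled cells, Ptprc, the pan-leukocyte phosphatase, stood at 53.7 ± 5.38 FPKM at 0.5 h and 52.3 ± 8.05 at 1 h, and Cd34 at 153 ± 40.9 and 136 ± 30.8 (SD, n = 3 at each time point here and below). The erythroid factors Gata1 and Klf1, the T cell gene Cd3e and the neutrophil gene Elane were listed at 0 in all 6 libraries, while the erythroid globin gene Hbb-b1 varied from 0.0055 to 89.5 FPKM. Other T cell and myeloid markers were present at low levels. The T cell gene Cd3g stood at 2.29 ± 1.11 FPKM at 0.5 h and 1.03 ± 1.12 at 1 h. The myeloid genes Mpo and Csf1r stood at 5.12 ± 4.11 and 0.473 ± 0.0858 FPKM at 0.5 h and at 5.04 ± 3.85 and 0.526 ± 0.151 at 1 h. Collagen gene Col1a1, a stromal marker, stood at 726 ± 73.7 FPKM at 0.5 h and 755 ± 70.2 at 1 h.

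Of 13907 genes tested, 16 (0.115%) passed an adjusted p of 0.05 between 1 h and 0.5 h, 10 higher at 1 h (0.0719%) and 6 lower (0.0431%). The test was limma's moderated test on log2(FPKM + 1) with Benjamini-Hochberg adjustment, so each log2 change is on that scale and understates the change of low genes. The genes that fell included Jun, Ier2 and Sik1, early-response genes at their highest at 0.5 h, and the lymphocyte activation antigen Cd69. The genes that rose held the transcriptional regulators Lmcd1, Klf10 and Bhlhe40, the kinases Map2k3 and Abl2, and regulators of ubiquitin and of Rab proteins. In all 16 the 3 libraries at 1 h lay apart from the 3 at 0.5 h, which was so for 1579 of all genes tested (11.4%; 4.94% higher and 6.41% lower). At an unadjusted p under 0.05 there were 814 genes (5.85%), 365 higher (2.62%) and 449 lower (3.23%), and the median log2 change of all genes tested was -0.04. The RNA comes from a mixed culture, so fewer cells of a type and less RNA per cell cannot be told apart.

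The calls rest on the spread measured over all 42 libraries of the replicated time points. With only the 6 libraries of the step in the fit, limma called 0 genes at an adjusted p under 0.05 and 967 at an unadjusted p under 0.05. It also called 0 genes when libraries were scaled to the blood-cell genes (329 at an unadjusted p under 0.05) or to the stromal genes (264). The split of 10 higher and 6 lower became 19 and 5 after quantile normalization and 8 and 8 with small RNA genes left out. The fit over 42 libraries called 5 genes without 0.5 h replicate 1, without 0.5 h replicate 2, without 1 h replicate 1 or without 1 h replicate 2. Klf10 and Sik1 were called whichever of the 6 libraries was left out. Bhlhe40 lost the call without 0.5 h replicate 1 (limma adjusted p = 0.0765) and Jun without 1 h replicate 1 (limma adjusted p = 0.0531), and each of the other 12 lost it for at least 3 of the 6 libraries. Rabgef1, Usp36, Plekho2, Zscan20 and Cd69 lost it whichever of the 6 was left out. Map2k3, Abl2, Fbxl8 and Ier2 kept it in only 1 of the 6 fits.

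**Figure D1:**
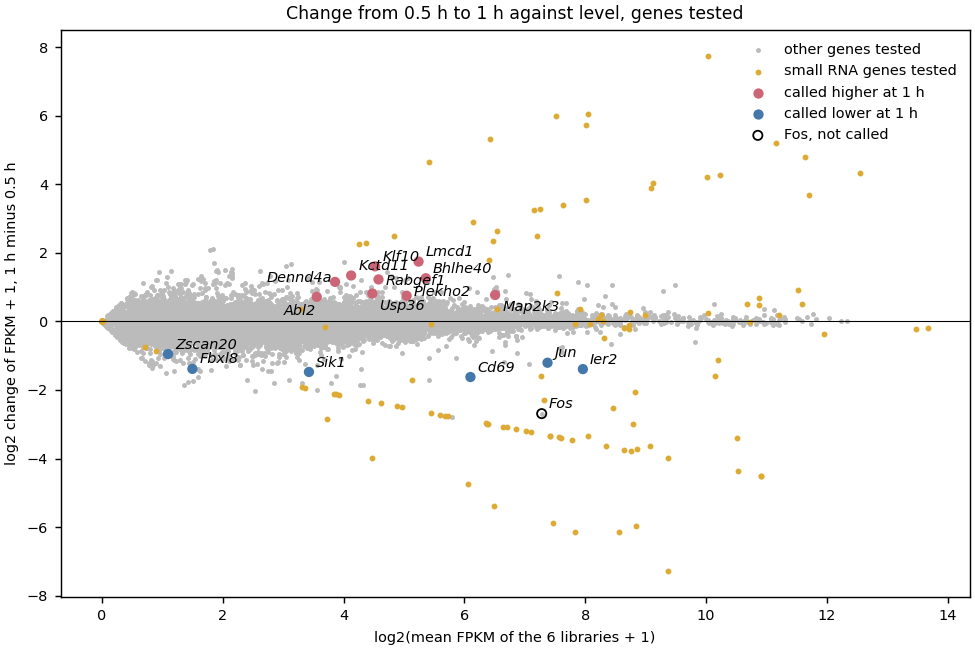
Change from 0.5 h to 1 h of every gene tested, as the difference in mean log2(FPKM + 1), 1 h minus 0.5 h (vertical axis), against log2 of the mean FPKM of the 6 libraries plus 1 (horizontal axis). Red and blue points are the 10 genes called higher and the 6 called lower, the open circle is Fos, grey points are other genes and yellow points are small RNA genes, of which 73 changed by more than 2 log2 units either way with none called.

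Of the 79 genes with a log2 change past 2 in either direction, 73 were small RNA genes, among 161 small RNA genes tested. None of the 161 was called by limma at an adjusted p under 0.05. Among the other 6 genes was Fos, described with the AP-1 genes.

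Jun, the DNA-binding partner at the core of AP-1, fell. It stood at 221, 230 and 235 FPKM at 0.5 h and at 74.5, 106 and 122 FPKM at 1 h. The libraries at 0.5 h were nearly level, and the highest library at 1 h was well under the lowest of them. The log2 change was -1.21 ± 0.19 (SE; limma adjusted p = 0.00208), and the mean was 2.27-fold higher at 0.5 h than at 1 h. At 0 h Jun had stood at 44.9 ± 14.5 FPKM and at 2 h it stood at 51.1 ± 6.81, so the level at 1 h lay between the 0.5 h level and those on either side. The 250 bases upstream of the Jun start in RefSeq (GRCm38.p6, chr4:95052223-95052472, minus strand; the expression files use mm9) are shown because the gene encodes an AP-1 subunit, and the gene and the motif were chosen after the values were seen. Capitals mark TGACATCA, an AP-1-like site, and the GC box GGGCGG read on the opposite strand.

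Jun: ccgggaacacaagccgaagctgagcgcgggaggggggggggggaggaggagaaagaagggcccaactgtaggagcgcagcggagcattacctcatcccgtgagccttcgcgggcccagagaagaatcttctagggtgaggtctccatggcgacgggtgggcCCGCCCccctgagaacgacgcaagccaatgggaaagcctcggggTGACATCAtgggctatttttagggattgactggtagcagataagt

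TGACATCA lies from 45 to 38 bases before the start and is found on either strand in 2.93% of the 32851 RefSeq windows of this length. The GC box lies from 89 to 84 bases before it and is found in 32.7% of windows.

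Ier2, an immediate-early gene whose product works in the nucleus, fell from the highest level among the genes called. Its values were 366, 423 and 290 FPKM at 0.5 h and 109, 150 and 150 FPKM at 1 h. No library at 1 h reached any library at 0.5 h. The log2 change was -1.39 ± 0.28 (limma adjusted p = 0.0389), and the level was 50.01 ± 12.0 FPKM at 0 h and 57.9 ± 5.77 at 2 h. Sik1, a salt-inducible kinase that is itself induced through CREB and restrains the CREB coactivators, stood at 15.8, 10.8 and 17.9 FPKM at 0.5 h and at 4.51, 3.69 and 5.76 FPKM at 1 h. The groups lay apart, with a log2 change of -1.47 ± 0.22 (limma adjusted p = 0.00117). At 1 h Sik1 was already near its levels of 6.25 ± 0.545 FPKM at 0 h and 6.38 ± 0.734 at 2 h.

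Cd69, a C-type lectin that keeps newly activated lymphocytes in tissue, stood at 119, 84.2 and 102 FPKM at 0.5 h and fell to 22.1, 39.3 and 38.0 FPKM at 1 h. The lowest library at 0.5 h was above the highest at 1 h by a wide margin. Its log2 change of -1.62 ± 0.35 lay close to the threshold (limma adjusted p = 0.0496). Unlike Jun, Ier2 and Sik1, Cd69 was already at 91.8 ± 20.0 FPKM at 0 h, and it stood at 20.4 ± 6.59 FPKM at 2 h. The summed FPKM of 21 general blood-cell genes was 2807 ± 411 at 0 h and 1429 ± 68.5 at 0.5 h. Levels at 0 h, of Cd69 and of the other genes, therefore come from a different mix of RNA.

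The other genes that fell were low throughout. Fbxl8, an F-box protein gene, stood at 4.15, 2.91 and 2.23 FPKM at 0.5 h and at 0.498, 0.426 and 0.713 FPKM at 1 h. Zscan20, a zinc finger gene with a SCAN domain, stood at 2.05, 1.64 and 1.75 FPKM at 0.5 h and at 0.327, 0.699 and 0.351 FPKM at 1 h. For both genes every library at 1 h was under 1 FPKM and every library at 0.5 h above it. The log2 changes were -1.38 ± 0.29 for Fbxl8 and -0.95 ± 0.20 for Zscan20 (both limma adjusted p = 0.0434). At 2 h Fbxl8 was back at 2.23 ± 0.356 FPKM and Zscan20 stood at 0.763 ± 0.301 FPKM.

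Lmcd1, a LIM and cysteine-rich domain protein that acts as a transcriptional cofactor, had the largest rise of the genes called. It stood at 12.7, 15.7 and 20.5 FPKM at 0.5 h and at 63.2, 67.3 and 41.3 FPKM at 1 h. The lowest library at 1 h, replicate 3, was still above every library at 0.5 h. The mean was 3.51-fold higher at 1 h, with a log2 change of 1.74 ± 0.35 (limma adjusted p = 0.0389). Klf10, a zinc finger repressor known as a TGF-beta-inducible early gene, stood at 7.44, 12.7 and 11.4 FPKM at 0.5 h and at 34.8, 35.4 and 30.0 FPKM at 1 h. The 3 libraries at 1 h were close together and far above those at 0.5 h. The log2 change was 1.61 ± 0.24 (limma adjusted p = 0.00117), and the mean was 3.18-fold higher. Bhlhe40, a basic helix-loop-helix repressor of the clock and of stress responses, stood at 19.7, 22.6 and 27.8 FPKM at 0.5 h and at 55.8, 58.4 and 56.1 FPKM at 1 h. It was the tightest of these 3 genes at 1 h, with a log2 change of 1.26 ± 0.21 (limma adjusted p = 0.00543).

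Kctd11, an adaptor of cullin-3 ubiquitin ligases that dampens Hedgehog signalling, rose from 6.30, 10.4 and 10.3 FPKM to 27.5, 21.8 and 22.3 FPKM. The log2 change was 1.34 ± 0.25 (limma adjusted p = 0.0245), and the groups lay apart. Usp36, a nucleolar deubiquitinase, stood at 14.8, 16.2 and 14.4 FPKM at 0.5 h and at 28.4, 27.4 and 26.2 FPKM at 1 h. Its libraries varied little at either time point, and the log2 change was 0.81 ± 0.17 (limma adjusted p = 0.0448).

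The promoters of Lmcd1 and Kctd11 are shown because they are the 2 largest rises among the 8 risen genes that the RefSeq table of promoters holds. Each run is the 250 bases upstream of the start, at chr6:112273508-112273757 on the plus strand for Lmcd1 and chr11:69880986-69881235 on the minus strand for Kctd11 (GRCm38.p6). Capitals mark, for Lmcd1, a CArG box, the core of the serum response element, and the cAMP response element TGACGTCA. For Kctd11 they mark the AP-1 site TGANTCA, the TEAD site GGAATG that overlaps it on the opposite strand, and GC boxes.

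Lmcd1: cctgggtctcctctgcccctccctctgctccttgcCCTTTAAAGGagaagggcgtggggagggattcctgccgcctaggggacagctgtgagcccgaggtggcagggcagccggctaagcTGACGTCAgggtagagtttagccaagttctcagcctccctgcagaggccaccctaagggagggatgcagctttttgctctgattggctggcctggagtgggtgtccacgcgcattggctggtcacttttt

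Kctd11: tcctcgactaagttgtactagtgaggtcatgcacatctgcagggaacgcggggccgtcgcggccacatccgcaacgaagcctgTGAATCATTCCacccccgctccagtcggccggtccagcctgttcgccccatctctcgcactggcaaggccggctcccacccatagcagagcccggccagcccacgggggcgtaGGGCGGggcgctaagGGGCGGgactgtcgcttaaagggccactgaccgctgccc

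The CArG box of Lmcd1 lies from 215 to 206 bases before the start and its cAMP response element from 130 to 123, motifs found on either strand in 1.47% and 1.55% of the 32851 windows. The AP-1 site of Kctd11 lies from 167 to 161 bases before the start and shares bases with the TEAD site from 162 to 157, and these motifs are found in 6.75% and 12.6% of windows. A GC box was found in 7 of the 8 risen genes with a promoter in the table, all but Lmcd1, beside 32.7% of all windows. The first is a count of genes with the motif in any window, and Rabgef1 has 3 windows, while the second is a share of single windows. Of the 6 genes that fell, 2 are in the table, and Zscan20 holds the cAMP response element. Windows rich in GC hold more GC boxes, and a match is a description of the letters, not evidence of binding.

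Among the signalling genes that rose, Map2k3, the kinase that activates p38, had the highest level. It stood at 67.8, 66.5 and 63.4 FPKM at 0.5 h and at 132, 109 and 100 FPKM at 1 h. The groups lay apart, with a log2 change of 0.77 ± 0.16 (limma adjusted p = 0.0434). Abl2, a tyrosine kinase that acts on the actin cytoskeleton, stood at 7.71, 7.12 and 8.88 FPKM at 0.5 h and at 13.9, 14.1 and 12.8 FPKM at 1 h. This was the smallest rise called, a log2 change of 0.72 ± 0.15 (limma adjusted p = 0.0434).

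Rabgef1 encodes an exchange factor for Rab5, the small GTPase of early endosomes, and Dennd4a another Rab exchange factor. Rabgef1 stood at 13.3, 13.8 and 12.8 FPKM at 0.5 h and at 33.996, 34.071 and 29.260 FPKM at 1 h, a log2 change of 1.22 ± 0.26 (limma adjusted p = 0.0434). Dennd4a stood at 8.44, 7.18 and 7.24 FPKM at 0.5 h and at 30.0, 13.1 and 15.03 FPKM at 1 h, a log2 change of 1.15 ± 0.24 (limma adjusted p = 0.0434). For Dennd4a, 1 h replicate 1 was far above the other libraries of its group, which still exceeded every library at 0.5 h. Without that library its log2 change was 0.80 and it was not called (limma adjusted p = 0.491). Plekho2, which encodes a protein with a pleckstrin homology domain, stood at 20.4, 26.03 and 24.4 FPKM at 0.5 h and at 37.5, 40.8 and 42.5 FPKM at 1 h, a log2 change of 0.75 ± 0.15 (limma adjusted p = 0.0389).

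**Figure D2:**
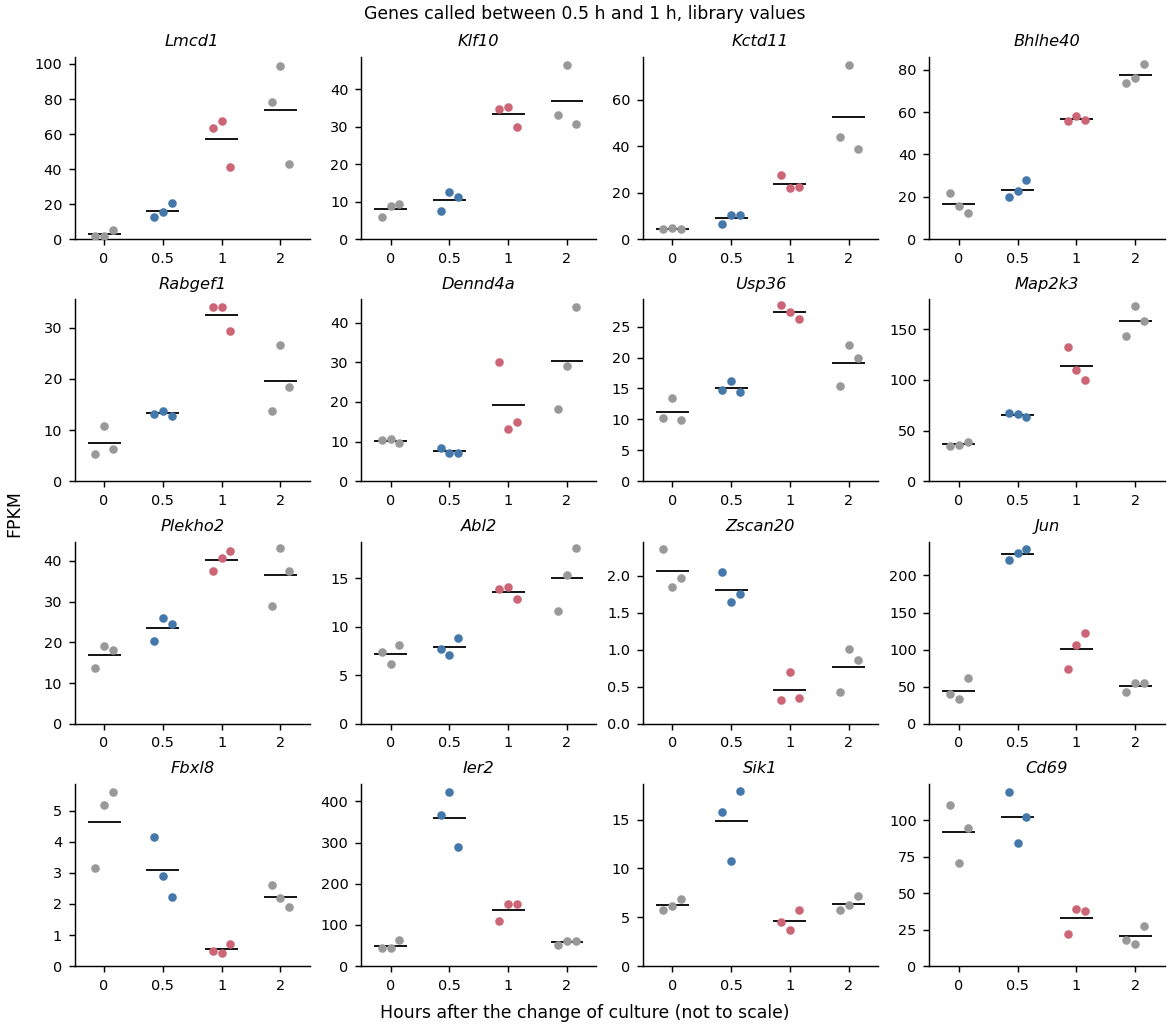
FPKM of the 16 called genes (vertical axes, each on its own scale) at 0, 0.5, 1 and 2 h (horizontal axes), with points for single libraries and bars for the mean of 3. Blue is 0.5 h, red is 1 h and grey is 0 h and 2 h; in every panel the red points lie apart from the blue ones.

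The levels on either side placed the step within the time course. Over the 14 replicated time points, the mean was highest at 0.5 h for Jun, Ier2, Sik1 and Cd69. It was highest at 1 h for Rabgef1 (32.4 ± 2.76 FPKM), Usp36 (27.3 ± 1.13) and Plekho2 (40.3 ± 2.52), and at 2 h for the other 7 risen genes. Of those 7, Kctd11 went from 23.9 ± 3.15 FPKM at 1 h to 52.5 ± 19.5 at 2 h, and Map2k3 from 114 ± 16.5 to 158 ± 14.4, while Klf10 stood at 33.4 ± 2.93 and 36.9 ± 8.49 FPKM, within the spread of its libraries. Fbxl8 and Zscan20 had the lowest mean of their time course at 1 h. These orders of means were not tested.

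**Figure D3:**
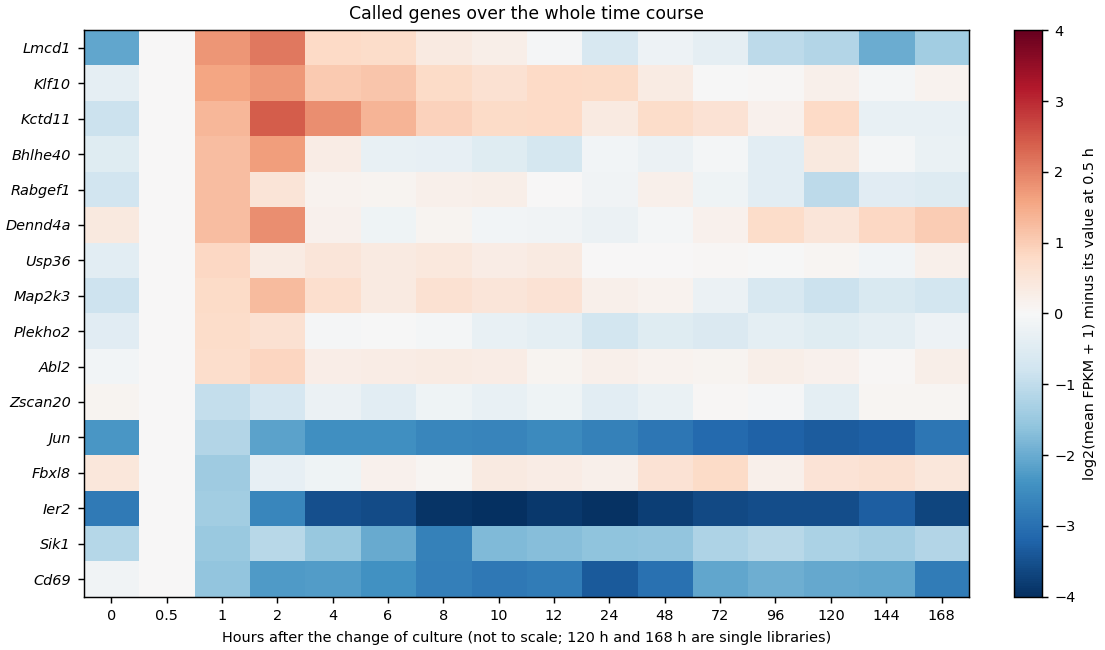
Heat map of the 16 called genes (rows) over the 16 time points (columns, hours), coloured by log2(mean FPKM + 1) minus the value at 0.5 h; 14 time points have 3 libraries and 120 h and 168 h have 1. Rows of Jun, Ier2 and Sik1 are highest at 0.5 h, and 7 of the 10 risen genes have their highest mean at 2 h. Among these 7, the libraries of Lmcd1, Klf10, Dennd4a and Abl2 overlap between 1 h and 2 h.

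Genes of the AP-1 and ATF family gave a mixed picture. Of 14 listed genes tested, Jun was the only one called, and 3 were higher and 2 lower at an unadjusted p under 0.05. Of all genes tested, 2.62% were higher and 3.23% lower at that level (5.85% either way), the shares to set beside each list below. The median log2 change of the AP-1 and ATF list was 0.04, which passed through 0 under some of the alternatives tried. Fos, the partner of Jun, stood at 259, 268 and 269 FPKM at 0.5 h and at 24.6, 47.0 and 56.4 FPKM at 1 h. The groups were far apart and the mean was 6.23-fold higher at 0.5 h. The log2 change of -2.69 ± 0.67 was not called (limma adjusted p = 0.114), and it was called with a pseudocount of 5 (limma adjusted p = 0.000898). Over the alternatives tried, the adjusted p for Fos ran from that value to 1.

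Fosb stood at 185, 249 and 283 FPKM at 0.5 h and at 84.3, 139 and 232 FPKM at 1 h, with the groups overlapping (log2 change -0.75 ± 0.47). Junb had a similar overlap, with 268, 362 and 244 FPKM at 0.5 h and 212, 246 and 234 FPKM at 1 h (log2 change -0.32 ± 0.22). Atf3, a stress-induced ATF factor, stood at 35.3, 71.7 and 82.7 FPKM at 0.5 h and at 30.5, 68.1 and 109 FPKM at 1 h, a spread within each group far above the log2 change of 0.04 ± 0.40. Fosl1, another Fos-type subunit, was higher at 1 h without being called, at 15.02 ± 9.47 FPKM against 35.7 ± 7.23, and at 42.1 ± 8.95 FPKM at 2 h (log2 change 1.45 ± 0.46, limma adjusted p = 0.39).

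None of the 5 Egr and Nab genes tested was called by limma, and 2 had an unadjusted p under 0.05. Egr1, a zinc finger factor of the immediate-early wave, stood at 177, 267 and 275 FPKM at 0.5 h and at 101, 174 and 144 FPKM at 1 h. The groups lay apart by a narrow gap, with a log2 change of -0.78 ± 0.35 (limma adjusted p = 0.8). Egr2 stood at 78.0 ± 20.1 FPKM and 53.2 ± 7.34 FPKM, and Egr3 at 39.4 ± 18.9 and 49.8 ± 7.06, with overlapping groups for both. At 0 h Egr2 and Egr3 had been under 1 FPKM on average, and at 2 h they stood at 18.9 ± 7.52 and 11.5 ± 2.24 FPKM. Nab2, a corepressor of the Egr factors, stood at 35.2, 41.2 and 39.5 FPKM at 0.5 h and at 56.9, 64.5 and 55.5 FPKM at 1 h without being called (log2 change 0.60 ± 0.28, limma adjusted p = 0.815).

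Of 17 genes of the Nr4a, Klf and Ier families, Klf10 rose and Ier2 fell, and 6 had an unadjusted p under 0.05, 3 each way. Nr4a1, an orphan nuclear receptor induced by antigen receptor and growth factor signals, stood at 236, 299 and 159 FPKM at 0.5 h and at 225, 265 and 138 FPKM at 1 h. Its groups overlapped almost wholly, with a log2 change of -0.15 ± 0.40, and its level was 39.6 ± 13.6 FPKM at 2 h. Klf2, a quiescence factor, was lower at 1 h in all 3 libraries, at 138 ± 26.5 FPKM against 60.4 ± 10.8, without being called (limma adjusted p = 0.376). Of the genes described so far from these 3 families, Fos, Jun, Egr1, Ier2 and Klf2 were lower at 1 h with the groups apart. Klf10 and Nab2 were higher with the groups apart, and Fosl1 had a higher mean. Fosb, Junb, Egr2, Egr3, Atf3 and Nr4a1 overlapped between 0.5 h and 1 h. Among all members tested, 5 AP-1 and ATF, 1 Egr and Nab, and 4 Nr4a, Klf and Ier genes lay apart higher. In the same order, 2, 1 and 3 lay apart lower. Of all genes tested, 4.94% lay apart higher and 6.41% lower. Whether these sets differ from each other was not tested.

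**Figure D4:**
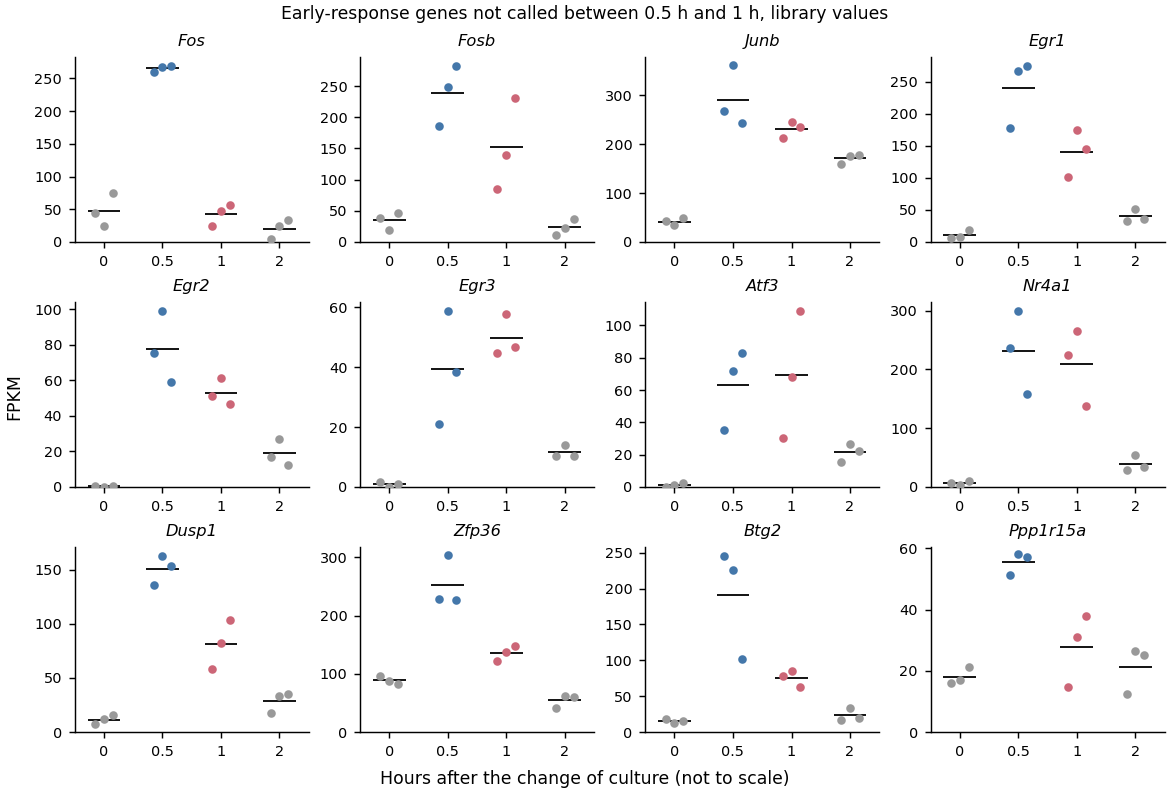
FPKM of 12 early-response genes (vertical axes, each on its own scale) at 0, 0.5, 1 and 2 h (horizontal axes), with points for libraries and bars for the mean of 3; blue is 0.5 h and red is 1 h. None of these 12 genes was called, and Fos shows the widest gap, 259 to 269 FPKM at 0.5 h against 24.6 to 56.4 at 1 h.

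Feedback genes of the MAP kinase pathway had members on both sides. Of 17 tested, none was called by limma. At an unadjusted p under 0.05, 4 were higher and 2 lower (2.62% and 3.23% of all genes tested). Dusp1, a nuclear phosphatase of MAP kinases, stood at 135, 163 and 153 FPKM at 0.5 h and at 58.3, 81.9 and 104 FPKM at 1 h (log2 change -0.91 ± 0.26, limma adjusted p = 0.226). Errfi1, a feedback inhibitor of the EGF receptor, stood at 108, 195 and 132 FPKM at 0.5 h and at 376, 374 and 216 FPKM at 1 h (log2 change 1.14 ± 0.33, limma adjusted p = 0.303). Both had their groups apart, in opposite directions. Dusp16, a phosphatase of JNK and p38, stood at 4.48 ± 1.20 FPKM against 10.2 ± 3.48 (limma adjusted p = 0.075).

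Of 10 genes of mRNA decay, none was called by limma and 5 had an unadjusted p under 0.05 (5.85% of all genes tested). Zfp36, which binds AU-rich elements and speeds the decay of early mRNAs, stood at 228, 304 and 226 FPKM at 0.5 h and at 123, 138 and 148 FPKM at 1 h. Btg2, an antiproliferative cofactor of deadenylation, stood at 246, 226 and 102 FPKM at 0.5 h and at 78.3, 85.1 and 63.0 FPKM at 1 h. Both were lower in every library at 1 h, and neither was called (limma adjusted p = 0.39 and 0.305). Zc3h12a, an RNase that cuts inflammatory mRNAs, was on the other side, with 23.0, 19.8 and 24.1 FPKM at 0.5 h and 31.3, 34.03 and 32.0 FPKM at 1 h (limma adjusted p = 0.522).

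The NF-kB family and its feedback genes had 5 of 19 members higher at an unadjusted p under 0.05 (2.62% of all genes tested). None was lower at that level (3.23%) and none was called by limma, with a median log2 change of 0.35. Relb, a subunit of the non-canonical arm, stood at 9.07 ± 0.633 FPKM at 0.5 h and 19.3 ± 2.88 at 1 h. Traf1, an adaptor of TNF receptors, stood at 1.14 ± 1.04 and 4.42 ± 0.658 FPKM, and was at 12.1 ± 0.480 FPKM at 2 h. Tnfaip3, the ubiquitin editor that turns off NF-kB, stood at 10.7, 18.7 and 22.1 FPKM at 0.5 h and 28.5, 29.6 and 33.1 FPKM at 1 h. The groups of these 3 genes lay apart, with limma adjusted p from 0.303 to 0.378.

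Growth factor, CCN and protease genes had 8 of 26 members higher at an unadjusted p under 0.05 (2.62% of all genes tested). None was lower at that level (3.23%) and none was called by limma, with a median log2 change of 0.44. Ereg, an EGF family ligand, stood at 17.9, 15.3 and 23.5 FPKM at 0.5 h and at 47.9, 43.4 and 46.3 FPKM at 1 h (log2 change 1.26 ± 0.29, limma adjusted p = 0.0653). Timp3, an inhibitor of matrix proteases, stood at 90.9, 91.6 and 141 FPKM at 0.5 h and at 289, 286 and 226 FPKM at 1 h (limma adjusted p = 0.267). Both had their groups apart, and Timp3 was far higher again at 2 h, at 724 ± 293 FPKM. Ctgf, a matrix-associated product of stromal cells, stood at 475 ± 153 FPKM at 0.5 h and at 951 ± 18.4 FPKM at 1 h (limma adjusted p = 0.721).

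Small G protein and early signalling genes had 8 of 18 members higher and 2 lower at an unadjusted p under 0.05 (2.62% and 3.23% of all genes tested). None was called by limma, and the median log2 change was 0.54. Trib1, a pseudokinase that directs proteins to the COP1 ligase, stood at 14.3, 18.8 and 23.3 FPKM at 0.5 h and at 45.8, 47.6 and 38.6 FPKM at 1 h (log2 change 1.20 ± 0.28, limma adjusted p = 0.0653). Sgk1, a kinase downstream of PI3 kinase, stood at 169 ± 46.8 and 350 ± 39.0 FPKM, and Rhob, a short-lived GTPase of endosomes, at 125, 130 and 113 FPKM and then 71.4, 78.2 and 90.0 FPKM. Cytokine and chemokine genes had 4 of 25 members higher and 2 lower at that level, with a median of -0.04. The chemokine Ccl2 stood at 424, 456 and 428 FPKM at 0.5 h and at 936, 835 and 656 FPKM at 1 h, and Flt3l, the ligand of the progenitor receptor Flt3, at 8.09, 11.3 and 8.70 FPKM and then 2.91, 3.32 and 4.17 FPKM. Neither was called (limma adjusted p = 0.474 for Ccl2 and 0.569 for Flt3l), although the groups of both lay apart.

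Over the 9 lists of early-response genes, 53 of 151 genes tested (35.1%) had an unadjusted p under 0.05, 38 higher and 15 lower, and 3 were called. Over the other 25 lists it was 28 of 416 (6.73%), 20 higher and 8 lower, with 1 called, beside 5.85% of all genes tested. The lists were written with earlier results of these data known, so these shares describe the lists and are no test of them.

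SRF and actin cytoskeleton genes had 12 of 21 members with the 3 libraries at 1 h above those at 0.5 h (4.94% of all genes tested), with 4 members higher at an unadjusted p under 0.05, and none called by limma. Srf, the serum response factor, stood at 27.2, 39.5 and 34.8 FPKM at 0.5 h and at 44.3, 47.9 and 42.1 FPKM at 1 h, and Vcl, which encodes vinculin, at 67.5, 71.5 and 97.2 FPKM and then 139, 123 and 112 FPKM. Their log2 changes were 0.41 ± 0.18 and 0.67 ± 0.23 (limma adjusted p = 0.765 and 0.49). Of 17 Id and TGF-beta or BMP feedback genes, 3 were higher at an unadjusted p under 0.05 (2.62% of all genes tested). Among them was Smad7, the inhibitory Smad, at 9.56, 11.8 and 17.2 FPKM and then 19.9, 20.6 and 21.8 FPKM.

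Of 14 circadian clock genes, Bhlhe40 was called. At an unadjusted p under 0.05, 3 were higher and 2 lower (2.62% and 3.23% of all genes tested). Dbp, an output factor of the clock, stood at 10.2, 7.18 and 5.93 FPKM at 0.5 h and at 2.87, 2.45 and 3.28 FPKM at 1 h (log2 change -1.16 ± 0.36, limma adjusted p = 0.376). Per2 stood at 4.69, 3.13 and 3.78 FPKM and then 11.5, 7.70 and 4.40 FPKM, with 1 h replicate 3 within the range of 0.5 h. Of 13 Notch pathway genes, 2 were higher at that level, among them Nrarp, a feedback inhibitor of Notch, at 1.55 ± 1.15 FPKM against 5.07 ± 1.98 (limma adjusted p = 0.411). In the list of amino acid response genes, Ppp1r15a, which directs a phosphatase to eIF2-alpha, stood at 51.3, 58.0 and 57.2 FPKM at 0.5 h and at 14.7, 31.1 and 37.8 FPKM at 1 h, apart but not called (limma adjusted p = 0.298).

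**Figure D5:**
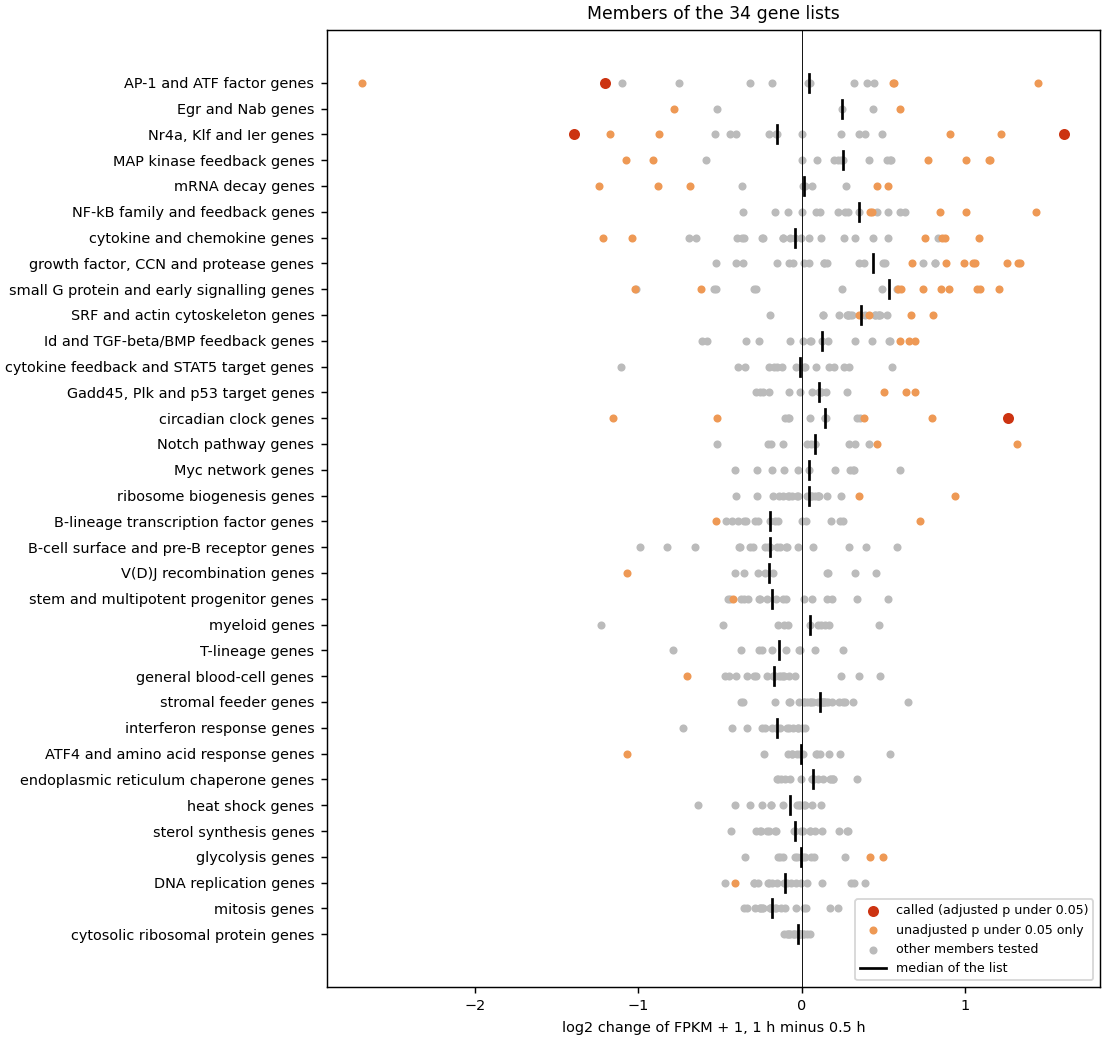
Log2 change from 0.5 h to 1 h (horizontal axis, log2(FPKM + 1) scale) of each tested member of the 34 gene lists (rows), with red points called, orange points at an unadjusted p under 0.05, grey points the others and a black bar at the list's median. Red points appear in 3 lists only, and the small G protein and early signalling list has a median of 0.54.

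The genes that define the B lineage and the progenitor state were not called between 0.5 h and 1 h. Of 17 B-lineage transcription factor genes limma called none, and 1 was higher and 1 lower at an unadjusted p under 0.05. The 3 libraries at 1 h lay above those at 0.5 h for 1 of the 17 and below them for 4 (4.94% and 6.41% of all genes tested). Median log2 changes were -0.20 for this list, B-cell surface and V(D)J recombination genes, -0.18 for progenitor and -0.17 for general blood-cell genes. They were -0.14 for T-lineage, 0.05 for myeloid and 0.11 for stromal feeder genes, beside -0.04 for all genes tested. Whether these lists differ was not tested. Ebf1, which commits cells to the B lineage, stood at 31.9, 47.7 and 16.7 FPKM at 0.5 h and at 45.1, 41.8 and 19.9 FPKM at 1 h, with the groups interleaved. Pax5 stood at 7.30 ± 2.84 and 5.73 ± 1.85 FPKM, Cd79a, a signalling chain of the B cell receptor, at 7.07 ± 2.99 and 9.17 ± 2.103 FPKM, and Rag1 at 2.18, 2.29 and 3.52 FPKM and then 1.05, 1.34 and 3.74 FPKM. Foxo1 stood at 7.74, 6.60 and 6.54 FPKM at 0.5 h and at 3.95, 5.67 and 4.07 FPKM at 1 h, apart but not called (log2 change -0.53 ± 0.23, limma adjusted p = 0.765).

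Il7r, the receptor chain for IL-7, stood at 11.7, 12.9 and 10.1 FPKM at 0.5 h and at 3.93, 6.73 and 8.25 FPKM at 1 h. The groups lay apart, and the log2 change of -0.82 ± 0.48 was not called (limma adjusted p = 0.95). Its level was 24.8 ± 6.29 FPKM at 0 h and 6.43 ± 1.16 at 2 h. The receptor genes Flt3 and Kit overlapped between the groups, at 76.6 ± 9.31 and 13.2 ± 2.87 FPKM at 0.5 h and at 67.5 ± 19.6 and 10.0 ± 1.23 FPKM at 1 h.

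The E protein gene Tcf3 (E2A) stood at 57.3, 55.0 and 54.7 FPKM at 0.5 h and at 46.5, 49.5 and 52.8 FPKM at 1 h. Its groups lay apart by less than 2 FPKM, with a log2 change of -0.16 ± 0.13. Of the Id genes, whose products hold E proteins off DNA, Id1, Id2 and Id3 were not called (limma adjusted p of 0.953 or more). Id3 reads pool the fusion with the cellular gene of progenitors and of any feeder cells, so they are not a level of the progenitors alone. They stood at 182, 212 and 107 FPKM at 0.5 h and at 184, 178 and 108 FPKM at 1 h, with the third replicate the lowest at both. Id1 was likewise lowest in that replicate, at 115, 112 and 67.2 FPKM and then 122, 130 and 76.2 FPKM, and Id2 stood at 28.05, 19.8 and 18.01 FPKM and then 26.9, 27.7 and 33.98 FPKM. Myc stood at 50.2, 69.5 and 82.0 FPKM at 0.5 h and at 74.3, 90.2 and 83.5 FPKM at 1 h (log2 change 0.32 ± 0.27).

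The sum over 26 stromal feeder genes was 5080 ± 558 FPKM at 0.5 h and 5433 ± 816 FPKM at 1 h, and that over 21 general blood-cell genes 1429 ± 68.5 and 1289 ± 162 FPKM. The stromal sum of a library lay between 4529 and 5645 at 0.5 h and between 4602 and 6233 at 1 h, and the blood-cell sum between 1365 and 1501, then 1127 and 1451. Both sums overlapped between the groups, with a two-sided exact permutation p of 0.6 and 0.3, where 0.1 is the smallest that 3 against 3 libraries can give. At 0 h the stromal sum had been 1086 ± 697 FPKM and the blood-cell sum 2807 ± 411. Col1a1 and Fn1, defining stromal genes, were far above 0 in all 6 libraries, so the RNA of the step includes stromal transcripts at both time points. Their part in the changes of single genes was not tested.

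Of the 34 lists, 31 had no member called by limma, and 12 of the 25 lists outside the early-response set had no member at an unadjusted p under 0.05 either. These were the lists of cytokine feedback and STAT5 target, Myc network, B-cell surface and pre-B receptor, myeloid, T-lineage, stromal feeder, interferon response, endoplasmic reticulum chaperone, heat shock, sterol synthesis, mitosis and cytosolic ribosomal protein genes. The 20 cytosolic ribosomal protein genes had log2 changes between -0.11 and 0.05, and the 16 endoplasmic reticulum chaperone genes between -0.15 and 0.34.

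A wider set of 40 genes (0.288%), 26 higher (0.187%) and 14 lower (0.101%), had a limma adjusted p under 0.1, and 24 of them lay outside the called genes. Of these 24, 5 are described here, chosen after their values were seen. Cd44, the hyaluronan receptor, stood at 74.2, 59.8 and 77.2 FPKM at 0.5 h and at 142, 115 and 136 FPKM at 1 h (limma adjusted p = 0.0599). F3, which encodes tissue factor, the starter of clotting, stood at 34.3, 49.4 and 69.9 FPKM and then 142, 142 and 89.4 FPKM (limma adjusted p = 0.0597). Ptger4, a receptor for prostaglandin E2, stood at 9.59, 10.5 and 11.9 FPKM and then 30.6, 27.4 and 20.5 FPKM (limma adjusted p = 0.0738). All 3 had their groups apart, and the level of Cd44 at 2 h was higher again, at 269 ± 37.8 FPKM, while that of Ptger4 was 14.4 ± 2.30. On the lower side, Pnrc1, a nuclear receptor coregulator, stood at 60.9, 55.3 and 61.8 FPKM and then 39.3, 24.4 and 35.8 FPKM (limma adjusted p = 0.0621), and Dus2l, a tRNA dihydrouridine synthase gene, at 4.79, 6.39 and 7.04 FPKM and then 1.02, 3.05 and 2.92 FPKM (limma adjusted p = 0.052).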

How the data were processed

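Poly(A) RNA of 44 libraries was sequenced. The deposited table gives 1 FPKM value per gene and library, made by the authors; TopHat2 2.1.0, Cufflinks 2.1.1 and build mm9 stand in the submitters' processing notes. The table's name contains the word corrected, without an explanation in the sources used here. Samples were grouped by labelled time. Values were taken as log2(FPKM + 1), a pseudocount of 1, without rescaling. Of 23234 genes, the 13907 that reached 1 FPKM in 3 or more of 42 libraries were fitted with limma 3.58.1 (R 4.3.3; 1 mean per time point, eBayes with trend), which left 28 residual degrees of freedom, and p-values were adjusted by Benjamini-Hochberg over all genes tested. The code was tested on simulated data. Calls were made under an adjusted p of 0.05. Named genes were the called genes with the largest rises and falls (up to 15 each) whose libraries lay apart, up to 4 called members per gene list, and 22 fixed genes; other genes printed were chosen after their values were seen. The step, the 34 lists and the rule were chosen with earlier results of these data known. The 0.5 h libraries also enter any comparison with 0 h and the 1 h libraries any with 2 h, so levels at 0 h and 2 h are given with no test. Promoters come from RefSeq (GRCm38.p6); the 250 bases upstream were searched on both strands for 10 motifs. Alternatives varied the pseudocount, filter, scaling, covariate, block, minimum change, variance prior and libraries.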

Additional observations from a re-analysis of the deposited data

How the results depend on the processing

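Over the 22 alternatives, 20 planned and 2 added after seeing the data (scaling to stromal genes, and only the 12 libraries from 0 to 2 h), each of the 16 called genes kept its direction. Some settings called 0 genes, so none could be called in all 22. Klf10 and Sik1 were called in the most settings, 16, and Zscan20 and Cd69 in the fewest, 8. Genes called (higher, lower) were 0 with a 1.5-fold minimum (limma treat, 61 at an unadjusted p under 0.05), 0 with only the 12 libraries (1010), 0 with only the 6 libraries (967), 0 scaled to blood-cell genes (329; median of all genes 0.09) and 0 scaled to stromal genes (264; median -0.11), 38 (27, 11) with a pseudocount of 5 and 35 (25, 10) with the stromal mean as a covariate. They were 24 (16, 8) with no filter on low values, 24 (19, 5) after quantile normalization and 16 (8, 8), 14 of them among the 16, with small RNA genes left out. The other planned settings of filter, scaling, pseudocount 0.1 and robust eBayes gave 14 to 18. Leaving out 1 library gave 5 to 15 genes, 2 to 9 higher and 1 to 6 lower. The cause of these differences was not tested.

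With the replicate number as a block the fit called 42 genes (29 higher, 13 lower), including all 16. In the 6 libraries alone the replicate block called 0 (1334 at an unadjusted p under 0.05). The deviations of same-numbered libraries correlated at 0.0328, 0.0922 and 0.144, each library best with its own number. For 0.5 h replicate 1 the margin was small, 0.0328 against 0.0293 with 1 h replicate 2. The library identifiers run consecutively from 0.5 h to 1 h within a replicate number. These are hints of pairing, which the labels do not state.

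Among genes not called, the log2 change switched sign for Nr4a1 (0.0046) and Id3 (0.079) scaled to blood-cell genes and for Atf3 (-0.051) scaled to stromal genes. With 1 library left out it ran from -0.40 to 0.12 for Nr4a1, from -0.36 to 0.17 for Id3, from -0.37 to 0.53 for Atf3, from -0.088 to 0.40 for Id1 and from -0.21 to 0.54 for Ebf1. Without counts, precision by depth cannot be given, which bears most on low genes such as Fbxl8 and Zscan20.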
